A study of Homo sapiens with 24 samples.

Results

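The effect of UV on the m6A map of wild type (WT) cells was described from a pair of peak lists, 1 without UV and 1 with UV, which together held 29454 of the 52777 peaks in the series. N6-methyladenosine (m6A), a methyl group on adenosines inside messenger RNA, had been mapped by precipitating polyadenylated RNA with an antibody and sequencing it beside its input as 50-base reads. All cells were of the human osteosarcoma line U2OS with METTL3 intact, and both groups were grown with 10 µM BrdU, a thymidine analogue. The WT plus UV group received UVC at 50 J, as the labels state it without an area, and was lysed after 2 min; the WT minus UV group was not irradiated. The labels listed 3 precipitated (IP) libraries with their inputs for WT minus UV and 4 for WT plus UV, 14 samples in all of the 24 in the series, which also holds METTL3 knockout cells that were not used here. Each list stood for all libraries of its condition and gave positions on RefSeq transcripts with no score, count or depth, so that these lists hold no values per library, the depth behind a peak is unknown here, and no difference between the lists could be tested against the spread between libraries. Irradiation and the number of IP libraries cannot be told apart in this comparison. Nor can, in bulk RNA, less methylation, less transcript per cell and fewer cells that carry the transcript.

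In cells, m6A is placed on nascent transcripts by a nuclear complex of METTL3 and METTL14 with WTAP, VIRMA, ZC3H13, CBLL1, RBM15 and RBM15B, is read by YTH domain proteins and can be removed by FTO and ALKBH5. The mark is known to cluster near stop codons and in long internal exons. UVC makes pyrimidine dimers in DNA, which are recognised and cut out by nucleotide excision repair, bypassed by translesion polymerases and signalled through the kinase ATR at stalled replication forks.

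A peak was called kept when at least 1 of its bases was covered by the opposite list on that transcript, gained when it was found with UV and shared none, and lost when it was found without UV and shared none. Peaks that began at the very first base of the transcript made up 245 of the 4632 gained peaks, or 5.29% (95% Wilson interval 4.68 to 5.97). Of the 3133 lost peaks 116 began there, or 3.70% (3.10 to 4.42), and of the 10833 kept WT plus UV peaks 394 did, or 3.64% (3.30 to 4.01). Within the first 50 bases began 12.3% (11.3 to 13.2) of the gained peaks, 8.59% (7.66 to 9.62) of the lost and 9.49% (8.95 to 10.1) of the kept WT plus UV peaks. All intervals in the text cover counting error alone, and peaks of a transcript are not independent. The annotated gene starts (RefSeq, GRCh38.p14) of 4 genes with a gained peak from base 1 and of 2 with a lost one are shown to let the starts be compared, 15 bases before the start and the first 15 transcribed, with the first transcribed base in capitals. They are the ADP-ribosyltransferases PARP14 (chr3:122680824-122680853, plus strand), PARP2 (chr14:20343620-20343649, plus), the RNA polymerase II subunit POLR2B (chr4:56978881-56978910, plus), the USP1 cofactor WDR48 (chr3:39052001-39052030, plus), the TFIIH cyclin CCNH (chr5:87412916-87412945, minus) and the nucleic acid-binding PURB (chr7:44885516-44885545, minus).
PARP14: caaagttagcggcccGgagttggcgcggcc
PARP2: atgacgtcagcgttcGaattccatggcggc
POLR2B: tcggagacggaagttActtcgtctttagct
WDR48: tgacgtcggagtgtcAacatgcaagatggc
CCNH: cgtaatcgtgacgacAgcgcgccagcgccg
PURB: gcgccggaagtggctAgggctgcacggaag
The gained peaks spanned bases 1 to 160 of PARP14, 1 to 130 of PARP2, 1 to 115 of POLR2B and 1 to 140 of WDR48, and the lost ones bases 1 to 110 of CCNH and 1 to 120 of PURB. The table of starts matched 187 of the 245 genes with a gained peak at base 1, 92 of 115 with a lost one and 315 of 391 with a kept one, and the listed transcript may begin elsewhere than the annotated gene. The first transcribed base was A in 46.5% (39.5 to 53.7) of the gained group, 51.1% (41.0 to 61.1) of the lost, 53.7% (48.1 to 59.1) of the kept and 46.2% (45.0 to 47.3) of all 7126 matched genes with a peak in either list. The letters GGAC, the core of the common m6A consensus, were searched on the transcribed strand of the first 50 bases. They were found in 20.9% (15.6 to 27.2) of the gained group, 18.5% of the lost and 19.4% of the kept. The share was 19.4% of the 7126 matched genes with a peak and 18.8% of all 27305 starts of the table. The longer GGACT was found in 3.21% (1.48 to 6.82) of the gained group, 8.70% (4.47 to 16.2) of the lost and 3.49% (1.96 to 6.14) of the kept, against 4.76% of the 7126. The intervals of gained, lost and kept overlapped for each of these features. Which adenosine under these peaks was methylated, the first or an internal one, was not tested.

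WT plus UV held 15465 peaks and WT minus UV 13989, and most of each list was kept. The gained share was 30.0% of the WT plus UV peaks and the lost share 22.4% of the WT minus UV peaks. The transcripts behind them differed more than the peak counts: 2362 of the gained peaks (51.0%, 49.6 to 52.4) lay on transcripts with no peak at all without UV, but 1223 of the lost peaks (39.0%, 37.3 to 40.8) on transcripts with none after UV. On the 6378 transcripts listed in both conditions the shares came closer, at 17.3% gained (16.7 to 18.0) and 15.0% lost (14.4 to 15.6). Few peaks lay at the edge of the definition, as 70 kept WT plus UV peaks (0.646%) overlapped by 10 bases or fewer and 110 gained peaks (2.37%) lay within 10 bases of a WT minus UV peak.

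**Figure D1:**
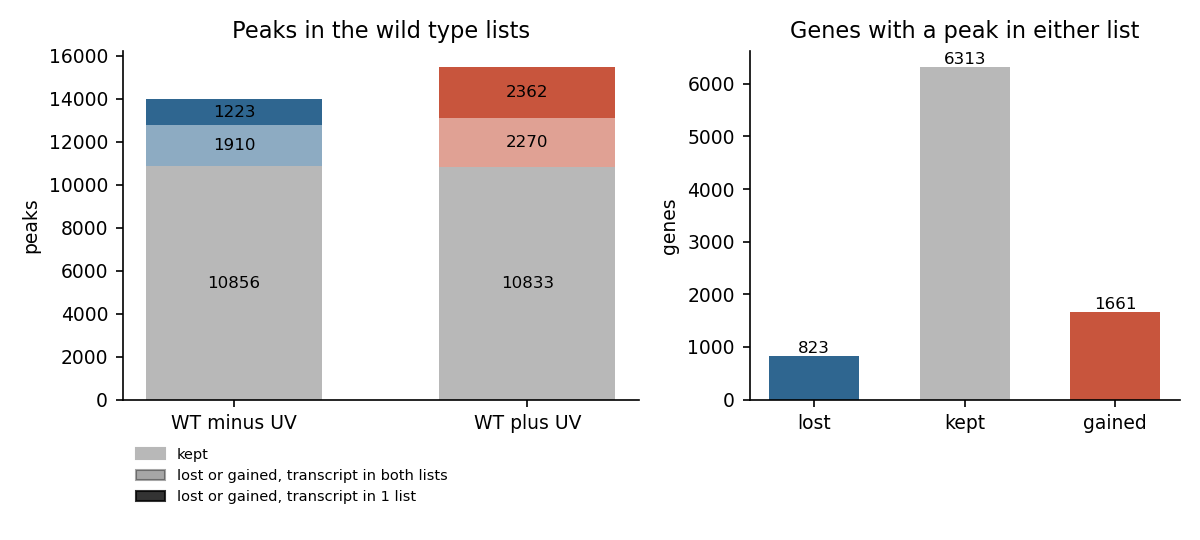
The left panel plots the number of peaks in each wild type list, stacked as kept peaks (grey) and as lost (blue) or gained (red) peaks, pale on transcripts of both lists and dark on transcripts of 1 list. The right panel plots genes with a peak in either list, of which 823 were lost, 6313 kept and 1661 gained.

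Of 8797 genes with a peak in either list, 1661 (18.9%) were gained, meaning listed with UV alone, 823 (9.36%) were lost and 6313 (71.8%) carried a peak in both. Most gained genes rested on 1 peak (1171, or 70.5%), as did most lost genes (593, or 72.1%), against 41.9% of the kept genes in WT plus UV. Genes with 5 or more peaks were 12 of the gained (0.722%, 0.414 to 1.26) and 16 of the lost (1.94%, 1.20 to 3.13). Thus 2.02 genes were gained for each gene lost, whereas 12 gained genes with 5 or more peaks stood against 16 lost ones.

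The gained genes with the largest total peak length were headed by RERE, a transcriptional corepressor of the atrophin family (chromosome 1, 8352404 to 8817640, GRCh38). RERE had no peak without UV and 6 with it, over 1779 bases, at 752 to 990, 2824 to 3060, 3501 to 3876, 4265 to 4450, 4461 to 4700 and 4771 to 5271 of its transcript. CCDC88A, which encodes the actin-binding protein girdin (chromosome 2, 55287842 to 55419856), also had 6, spread from base 76 to base 6764. BRCA1, the homologous recombination factor (chromosome 17, 43044295 to 43170327), had 6 over 992 bases: 5 of them lay between bases 1320 and 3320 and the sixth at 5751 to 5922. PARP14, a mono-ADP-ribosyltransferase (chromosome 3, 122680839 to 122730840), had 5 peaks over 1107 bases, the first from base 1. KDM6A, a histone H3 lysine 27 demethylase, had 5 peaks from base 7 to base 5012. Each of these 5 genes thus had peaks at several sites, unevenly spaced: RERE had none before base 752 and BRCA1 none between the peaks that ended at 3320 and began at 5751.

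Others of the 10 longest gained genes were TNKS1BP1 with 5 peaks, the chromatin remodelling subunit BAZ1A with 5, SMG6, the endonuclease of nonsense-mediated decay, with 4, the remodeller CHD2 with 4 and the kinase SIK3 with 3. SIK3 (chromosome 11, 116843402 to 117098428) also had the widest gained peak, of 658 bases at 2773 to 3430. FGD5, listed in both conditions, came next in width with a gained peak of 627 bases at 294 to 920.

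The lost genes were headed by NUFIP2, an RNA-binding partner of FMRP (chromosome 17, 29255839 to 29294148), with 7 peaks over 1992 bases without UV and none with it. The NUFIP2 peaks lay at 60 to 333, 376 to 571, 732 to 1500, 1703 to 1972, 2114 to 2273, 2474 to 2636 and 7241 to 7400; the peak at 732 to 1500 was the widest of all lost peaks. SLC5A3, a myo-inositol transporter on chromosome 21, had 8 peaks over 1683 bases, all between bases 364 and 3134. MTR, methionine synthase, and SYNE2, a large protein of the nuclear envelope, had 7 peaks each over 1247 and 1280 bases. KIF14, a kinesin of cytokinesis, had 6, and INO80D, a subunit of the INO80 remodeller, PURB, a protein that binds single-stranded nucleic acid, ZZEF1, USF3 and the transcription factor ZBTB20 had 5 each. PURB also had a wide lost peak of 570 bases at 574 to 1143, and SUPT7L, listed in both conditions, one of 583 bases at 878 to 1460.

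**Figure D2:**
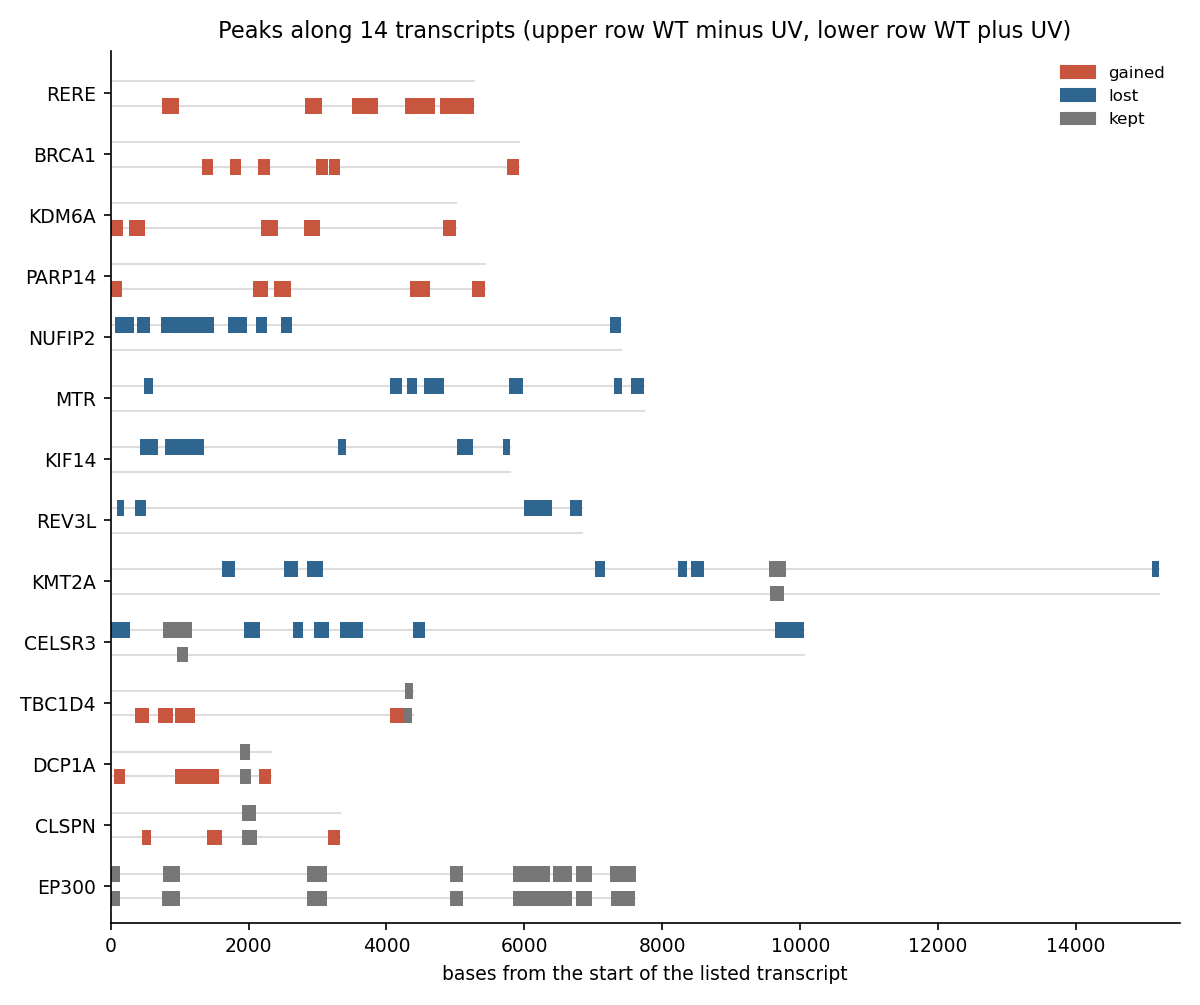
Peaks of 14 transcripts are drawn by their distance in bases from the start of the listed transcript, with WT minus UV in the upper and WT plus UV in the lower row of each gene; grey lines end at the furthest peak. RERE, BRCA1, KDM6A and PARP14 have peaks with UV alone, NUFIP2, MTR, KIF14 and REV3L without UV alone, and the 8 peaks of EP300 recur in both rows.

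Some transcripts listed in both conditions went from 1 or 2 peaks to 5 or more. TBC1D4, a Rab GTPase-activating protein (chromosome 13, 75283503 to 75482169), had 1 peak of 109 bases without UV, at 4271 to 4379. With UV it had 5 over 1025 bases, of which 4 were gained, 3 of them between bases 351 and 1221 and 1 adjoining the kept peak. DCP1A, an activator of mRNA decapping, had 1 peak at 1871 to 2024 without UV; with UV the same site was listed at 1871 to 2032 beside 4 gained peaks from base 47 to base 2327. IRGQ went from 2 to 6 peaks, ARID5B from 2 to 5 and FGD5 from 2 to 5, each with 4 gained.

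Other transcripts listed in both conditions had far fewer peaks with UV. KMT2A, a histone H3 lysine 4 methyltransferase (chromosome 11, 118436492 to 118526832), had 8 peaks between bases 1611 and 15200, and the peak at 9542 to 9792 was the single one kept, listed with UV at 9561 to 9760. CELSR3, a cadherin of planar cell polarity, had 8 peaks without UV and 1 with it, and the kept site was listed at 765 to 1180 without UV and at 961 to 1120 with it. NFAT5, which drives the transcriptional response to osmotic stress, had 7 and 1, the kept peak being listed at 3805 to 4190 and then at 3831 to 4090. KMT2D, of the same enzyme family as KMT2A, had 18 and 12, with 6 lost and 1 gained.

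The transcripts that kept most peaks with none gained or lost were EP300, a histone acetyltransferase, with 8 peaks in both lists, NOTCH2 with 8 and 8, GLI3 with 7 and 8, SRCAP with 7 and 7 and MED1, a Mediator subunit, with 7 and 7. The EP300 peak at 2841 to 3135 without UV was listed at 2846 to 3132 with it, and the one at 6419 to 6684 at 6386 to 6689. In all, 3629 of the 6378 shared transcripts (56.9%) had no gained and no lost peak, 1266 (19.8%) had gained peaks alone, 1020 (16.0%) lost peaks alone and 463 (7.26%) both. The number of peaks was higher with UV on 1438 of them and lower on 1166, and 77 transcripts differed by 3 or more in each direction.

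Kept peaks were compared base by base where a single peak faced a single peak, which gave 9637 pairs. The median share of the joint span that both lists covered was 88.9%. The start differed by a median of 0 bases (quartiles -10 and 7, WT plus UV minus WT minus UV) and the end by 0 (-9 and 9), and 320 pairs (3.32%) were identical. The WT plus UV peak was wider in 4878 pairs and narrower in 4131, with a median difference of 1 base and median widths of 195 and 191. Peaks that faced 2 or more in the other list were about as many in each direction, 526 in WT plus UV and 502 in WT minus UV.

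Gained and lost peaks were narrower than kept ones. The median width was 170 bases for gained peaks (quartiles 131 and 203) and 198 for kept WT plus UV peaks (167 and 241), and 160 for lost peaks (122 and 193) against 193 for kept WT minus UV peaks. A wide peak has more room to overlap, so that width is not independent of the classes. Of the WT plus UV peaks of exactly 100 bases, the narrowest listed, 59.8% (56.2 to 63.4) were gained, and of those of 400 bases or more 10.3% (7.80 to 13.5). The lost share went from 40.2% (37.1 to 43.3) to 7.65% (5.38 to 10.8) over the same range. The number of peaks on a transcript went the same way: of WT plus UV transcripts with 1 peak 30.7% had none without UV, and of those with 5 to 7 peaks 3.85% (2.21 to 6.60). For WT minus UV transcripts the share with none after UV was 17.5% at 1 peak, 7.21% at 2 peaks, 5.04% at 3 to 4 and 5.02% (3.06 to 8.11) at 5 to 7.

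**Figure D3:**
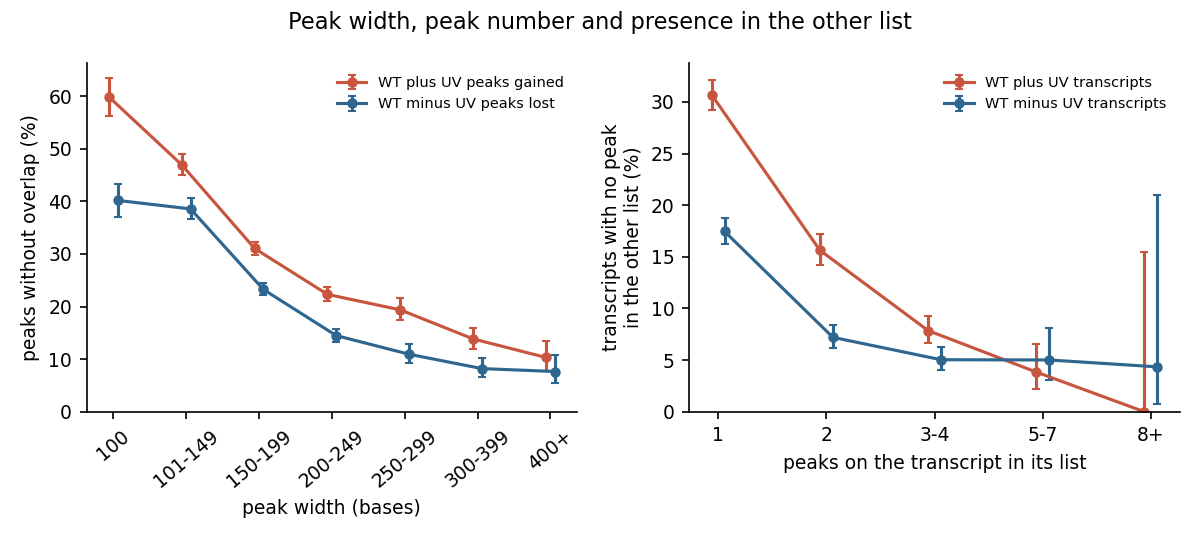
The left panel plots the percentage of peaks without an overlap by peak width in bases, the right panel the percentage of transcripts with no peak in the other list by their number of peaks; red stands for WT plus UV, blue for WT minus UV, and bars are 95% Wilson intervals. The WT plus UV values run above the WT minus UV values at 1 to 4 peaks and the intervals overlap from 5 peaks on.

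The place of peaks along the transcript was compared with that of kept peaks. On shared transcripts with 3 or more peaks in a list, 20.3% (18.3 to 22.3) of the gained peaks, 20.5% (18.4 to 22.7) of the lost and 19.3% (18.3 to 20.4) of the kept WT plus UV peaks had their centre in the first of 5 equal parts of the distance to the furthest peak end. The last of these parts held 36.8%, 38.1% and 38.6%, and the intervals overlapped for both parts. The fourth part held fewer of the lost peaks, 13.4% (11.7 to 15.4), than of the gained, 17.3% (15.5 to 19.2), or of the kept WT minus UV peaks, 16.3% (15.3 to 17.2). The intervals of lost and kept overlapped narrowly, and this part of the 5 was singled out after the values were seen. The full transcript lengths were not used here, so that these parts do not stand for the coding region or a UTR. On shared transcripts the gained peaks lay a median of 512 bases from the nearest WT minus UV peak and the lost peaks 520 bases from the nearest WT plus UV peak.

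Gained and lost genes differed in length. In the quintile of the shortest genes, those up to 11756 bases of genome, 458 of 1760 (26%, 24.0 to 28.1) were gained and 8.30% (7.10 to 9.68) lost. In the quintile of the longest, from 99976 bases on, 16.0% (14.4 to 17.8) were gained and 12.1% (10.7 to 13.7) lost. The quintiles between had 16.8% to 18.8% gained and 8.36% to 9.15% lost, so that neither share changed evenly with length. Genomic length was not split by the number of peaks. The median genomic length was 27614 bases for gained, 36177 for kept and 40752 for lost genes. Sorted by the furthest peak end on the transcript instead, both shares were lower where the end lay further out, from 28.0% to 8.47% for gained and from 13.6% to 7.44% for lost genes. The number of peaks moves with that measure. Among WT minus UV genes with 1 peak, the lost share was 19.6% (17.4 to 22.0) in the group with the nearest ends and 18.7% (14.4 to 24.0) in the group with the furthest. The difference in lost genes was thus not seen among genes with 1 peak. Among those with 3 or more peaks, 1 of 7 (14.3%, 2.57 to 51.3) and 47 of 928 (5.06%, 3.83 to 6.67) were lost, too few in the nearest group to compare. Among WT plus UV genes with 1 peak, the gained share was 34.1% (31.6 to 36.6) with the nearest ends and 17.3% (13.1 to 22.5) with the furthest. The furthest end was taken over both lists, however. A gene listed in both can thus be placed further out by a peak of the other list, and a gained or lost gene cannot. This measure is therefore not independent of the classes, and no difference along it can be read apart from that.

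**Figure D4:**
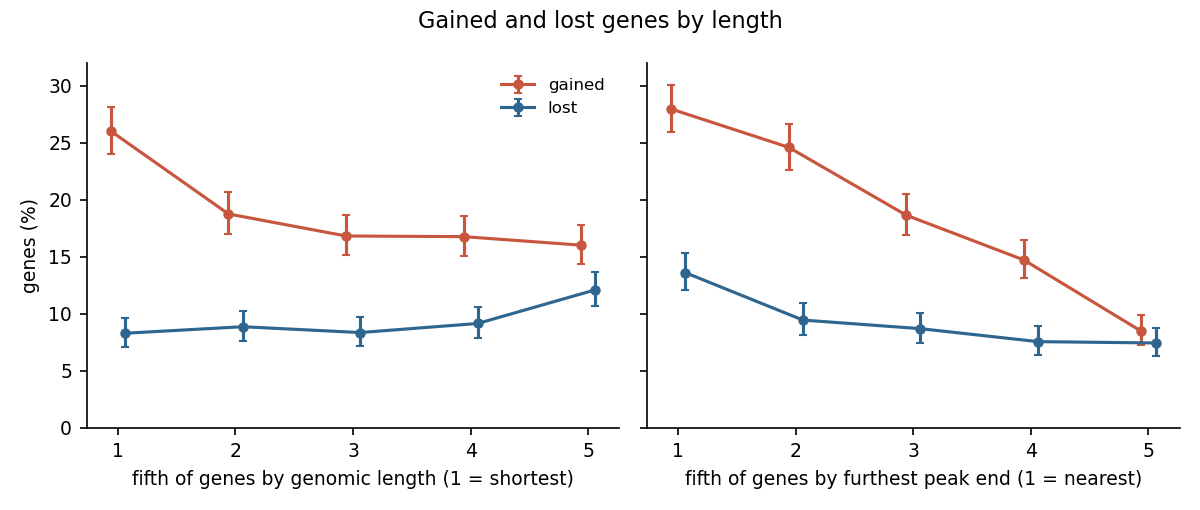
Percentages of gained (red) and lost (blue) genes are plotted over 5 equal groups of genes ordered by genomic length (left) and by the furthest peak end on the transcript (right), with 95% Wilson intervals. The gained share runs down to 16.0% and the lost share up to 12.1% in the group of the longest genes, and in the right panel both are lowest where peaks reach furthest.

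By kind of gene, 65 of 168 long noncoding RNA genes were gained (38.7%, 31.7 to 46.2) and 33 lost (19.6%, 14.3 to 26.3), and of 117 transcribed pseudogenes 32 were gained (27.4%) and 25 lost (21.4%). Protein-coding genes were gained in 18.4% and lost in 8.98% of 8507. Of the named long noncoding RNAs, MALAT1 kept its peaks at 1801 to 2012 and 2647 to 2950 and had a gained one at 1224 to 1352, NORAD had 5 and 4, and NEAT1 and SNHG15 had a single gained peak of 172 and 100 bases. ZNF genes, the zinc finger transcription factors, turned over in both directions: 63 of 245 were gained (25.7%, 20.6 to 31.5) and 46 lost (18.8%, 14.4 to 24.1). Of the 93 ZNF genes on chromosome 19, 30 were gained (32.3%, 23.6 to 42.3) and 24 lost (25.8%, 18.0 to 35.5), of the 152 elsewhere 33 (21.7%) and 22 (14.5%), and of the other 473 genes on chromosome 19, 21.4% and 8.03%. ZNF324 with 4 peaks, ZNF337 with 2 and ZNF629 with 3 were the longest gained, and ZNF641 with 4, ZNF561 with 5 and ZNF260 with 3 the longest lost. ZNF transcripts share long stretches of sequence, so that the placing of their reads is uncertain.

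For the groups of genes that follow, the shares over all 8797 genes, 18.9% gained and 9.36% lost, are the level to read each count against; with groups of 10 to 31 members the intervals of nearly all groups span it. For peaks, the level is 30.0% gained and 22.4% lost over all transcripts, and 17.3% and 15.0% on transcripts listed in both conditions. The groups were not split into shared and other transcripts. The median change in peaks per gene was 0 over all genes and 0 in the pathway groups that follow, except for the histone methyltransferases and demethylases, where it was 1. The sets of cell type markers, described last, had 0 to 4 members with a peak.

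**Figure D5:**
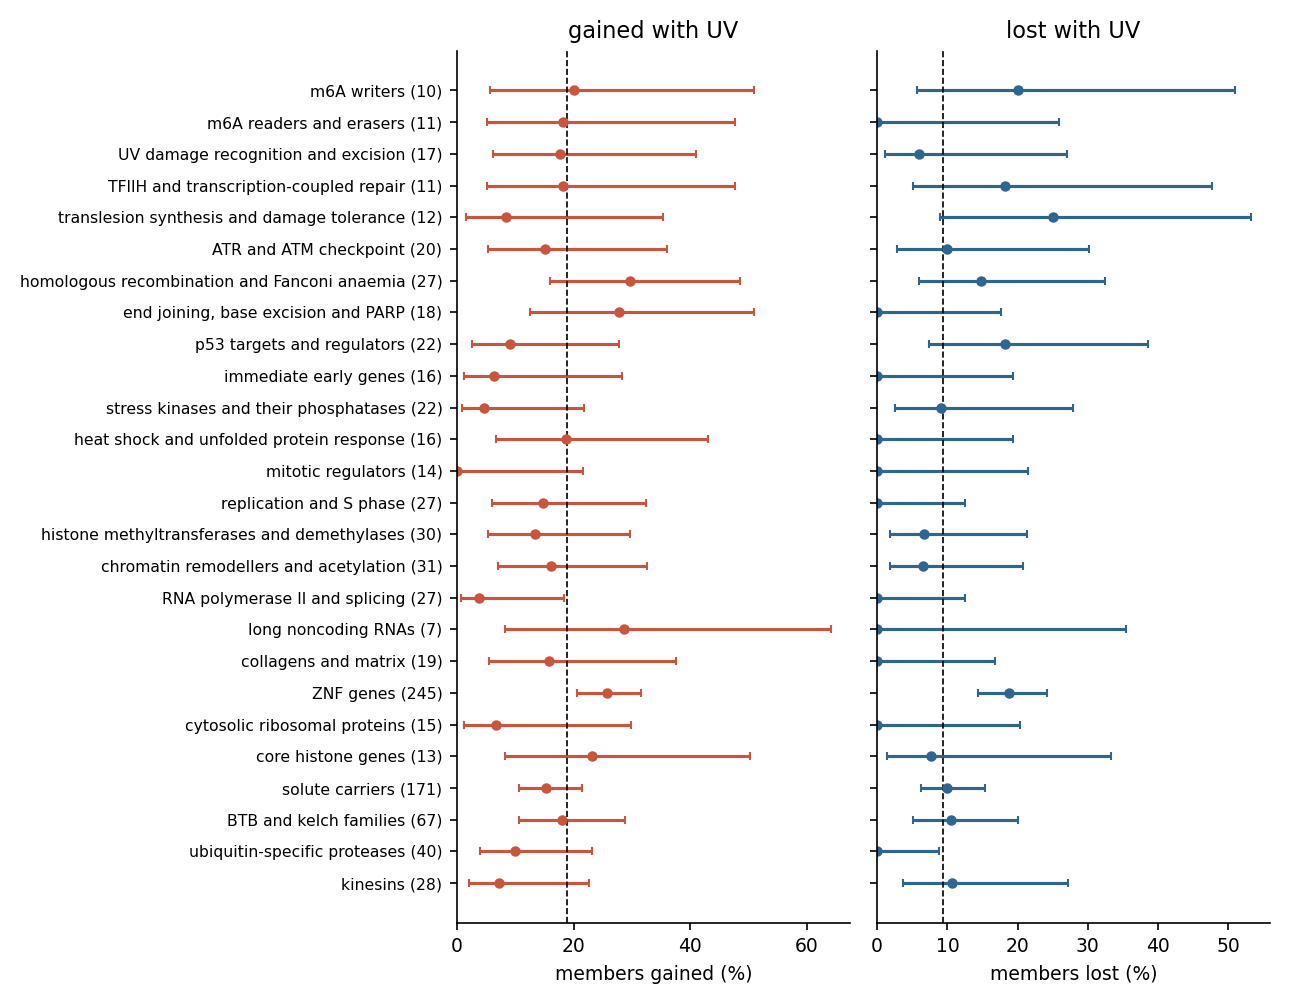
The percentage of members gained (left) and lost (right) is plotted for each group of genes, with the members that carried any peak counted in brackets, 95% Wilson intervals and a dashed line at the share over all genes (18.9% and 9.36%). Most intervals cross the line, those of the ZNF genes lie above it on both sides, and those of the RNA polymerase II and splicing group (gained, 1 of 27, or 3 of 23 at a minimum width of 150 bases) and the ubiquitin-specific proteases (lost) lie below it.

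The group listed as m6A writers also held enzymes outside the complex described above. Of its 13 members 10 carried a peak in either list, 2 of them gained and 2 lost. The adaptor RBM15B (chromosome 3, 51391285 to 51397908) had 3 gained peaks over 877 bases, at 1506 to 1900, 1981 to 2244 and 2595 to 2812, and the subunit ZC3H13 a single one of 100 bases. METTL14, the partner of METTL3, lost its peak at 1331 to 1462 and WTAP, which holds the complex together, one of 278 bases at 1113 to 1390. METTL3 itself, VIRMA with 4 peaks and CBLL1 kept all of theirs. Outside the complex, METTL16, PCIF1 and MAT2A, the enzyme that makes the methyl donor, also kept all of their peaks. Of 11 readers and erasers 2 were gained and 0 lost: HNRNPA2B1 had peaks at 824 to 1077 and 1181 to 1300, and FMR1 at 1057 to 1231 and 1742 to 1916. The YTH readers moved both ways, as YTHDC2 went from 3 peaks to 1 while YTHDF1, YTHDF3 and YTHDC1 had 1 gained peak each.

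In UV damage recognition and excision, 3 of 17 members were gained and 1 lost. Each gained member rested on 1 peak, among them at 6 to 150 of RBX1, the RING subunit of the ligase that holds DDB2, and at 1089 to 1240 of RPA3, a subunit of the single-strand binding protein. ERCC4, the endonuclease that cuts on the 5′ side, lost both of its peaks, at 2280 to 2400 and 2471 to 2694. DDB1, DDB2, CUL4B, ERCC5, LIG1 and PCNA kept every peak. XPC had 3 peaks in each list, but its site at 1311 to 1426 was lost, and the single WT minus UV peak at 1511 to 1910 faced peaks at 1442 to 1559 and 1560 to 1929 with UV. Of 11 genes of TFIIH and transcription-coupled repair, 2 were gained and 2 lost: GTF2H4 and GTF2H2, whose transcript is numbered as 1 of several copies, had a gained peak each, and CCNH and ERCC8 were lost. At a minimum width of 150 bases, 2 of 9 genes of this group were gained and 0 lost. POLR2B, a core subunit of RNA polymerase II, had 1 peak without UV and 3 with it.

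In translesion synthesis and damage tolerance 1 of 12 members was gained and 3 were lost (25%, 8.89 to 53.2). REV3L, the catalytic subunit of polymerase zeta, lost peaks at 91 to 190, 351 to 511, 6001 to 6400 and 6660 to 6840, while HLTF and SHPRH, ligases that act on PCNA, lost 1 each. POLI was gained with 1 peak of 215 bases. USP1, the protease that removes ubiquitin from PCNA, kept its 2 peaks, which were listed wider with UV, and had gained peaks at 341 to 440 and 681 to 809. REV1, RAD18, UBE2A and UBE2B kept all of theirs, and POLK and POLH, polymerases of the same pathway, were in neither list.

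The ATR and ATM checkpoint group had 20 members with a peak, 3 gained and 2 lost, and its peaks numbered 26 without UV and 37 with it. Of the 37, 13 were gained (35.1%, 21.8 to 51.2, against 30.0% of all WT plus UV peaks), and of the 26, 3 were lost (11.5%, 4.0 to 29.0, against 22.4%). CLSPN, the mediator that couples ATR to CHK1, kept 1 peak at 1901 to 2111 and had gained peaks at 454 to 590, 1401 to 1609 and 3148 to 3330. TOPBP1, the ATR activator, went from 1 to 3 and the mediator MDC1, on a copy-numbered transcript, from 2 to 4. HUS1, a subunit of the 9-1-1 clamp, the fork protection factor TIPIN and the phosphatase CDC25C were the gained members, with 1 peak each, and ATM and the ligase RNF8 were lost with 1 each. CHEK1, CHEK2, WEE1, ATRIP and TP53BP1 kept every peak.

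Homologous recombination and Fanconi anaemia genes had the highest shares of both gained and lost peaks among the repair groups. Of 27 members 8 were gained (29.6%, 15.9 to 48.5) and 4 lost (14.8%, 5.92 to 32.5), and both intervals spanned the shares over all genes. At the level of peaks 25 of 52 were gained (48.1%, 35.1 to 61.3, against 30.0% of all WT plus UV peaks). Of 46 WT minus UV peaks 19 were lost (41.3%, 28.3 to 55.7, against 22.4% of all). The peak shares leaned on few transcripts. BRCA1, SLX4 and FANCC held 6, 4 and 3 of the gained peaks, and RIF1, BRCA2 and MCM9 held 4, 3 and 3 of the lost. The intervals for peaks treat peaks of a transcript as independent, which they are not. Beside BRCA1, the gained members included PALB2, BRIP1, FANCM, FANCL, EME1 and XRCC2, each with 1 peak of 174 to 360 bases. BRCA2, a mediator of recombination, lost peaks at 1771 to 1927, 9963 to 10153 and 10290 to 10459, MCM9 lost 3, FANCA 2 and FANCG 1. SLX4, a scaffold of nucleases, kept its sites near 821 and 6001 and had 4 gained peaks, FANCC went from 1 peak to 4, and RIF1, with 8 and 6 peaks, had 4 lost and 2 gained. In end joining, base excision and PARP genes 5 of 18 were gained (27.8%, 12.5 to 50.9) and 0 lost: PARG had 3 gained peaks over 651 bases, and PARP2, NHEJ1, UNG and XRCC4 had 1 each, of 156 bases or fewer. This group had 3 of 15 gained and 2 lost at a minimum width of 150 bases.

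Of 22 p53 targets and regulators 2 were gained and 4 lost. CDKN1A, the p21 inhibitor, lost its single peak at 481 to 660, CCNG1 its 3 peaks, and TIGAR and FDXR 1 each, while PHLDA3 had gained peaks at 1 to 210 and 871 to 1028. ZMAT3 went from 5 peaks to 2; MDM2 with 3 peaks, GADD45A, SESN1, SESN2 and FAS had none gained or lost. Immediate early genes, which are transcribed within minutes of stress, were nearly all kept: 15 of 16 carried a peak in both lists, ZFP36 was gained with 2 peaks and 0 were lost (an interval of up to 19.4%). Among the stress kinases and their phosphatases 1 of 22 was gained (EIF2AK1, 2 peaks) and 2 lost (MAP3K5 with 2 peaks and ATF2 with 1), and MAP3K1 went from 4 peaks to 1. Of 16 heat shock and unfolded protein response genes 3 were gained, BAG3 with a peak of 104 bases, DNAJB4 with 1 of 210 and HSP90AB1 with 2, and 0 were lost.

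Of all genes 71.8% were listed in both conditions. For the cell cycle groups, the interval of the gained share and that of the lost share, each taken alone, spanned the share over all genes. No interval was computed for the kept share of a group. All 14 mitotic regulators with a peak in either list had one in both, and ECT2 went from 1 to 3. Of 27 replication genes 4 were gained, ORC1 with 3 peaks over 512 bases and GINS2, CCNE1 and TYMS with 1 each, and 0 were lost, although RRM2 went from 3 peaks to 1. At a minimum width of 150 bases, 4 of 23 replication genes were gained and 2 lost, and 1 of 13 mitotic regulators was gained. Of 27 genes of RNA polymerase II and splicing 1 was gained (3.70%, 0.657 to 18.3), NELFA with 1 peak, and 0 were lost. With peaks under 150 bases left out, 3 of 23 were gained and 1 lost. CDK12, a kinase of transcript elongation, went from 4 to 6 peaks and CCNT1, cyclin T1, from 1 to 3 at other sites.

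Chromatin genes carried many peaks. The 31 remodelling and acetylation genes had 103 peaks without UV and 126 with it, of which 36 were gained (28.6%, 21.4 to 37.0). Of the 103, 11 were lost (10.7%, 6.07 to 18.1), against 22.4% of all WT minus UV peaks. On shared transcripts 15.0% of the WT minus UV peaks were lost, a share that this interval spans. CHD9 with 4 peaks, SMARCA5 with 2 and BAZ2B with 1 were gained beside BAZ1A and CHD2, and the acetyltransferase KAT2B was lost with 1. Among genes listed in both, CHD6 and CHD7 went from 6 to 8, and TET3 from 8 to 10 with gained peaks at 1 to 150 and 5511 to 5610. Of 30 histone methyltransferases and demethylases 4 were gained, KDM6A, EHMT2 (a copy-numbered transcript), KDM2B and KDM7A, and 2 lost, EZH2 with a peak of 259 bases and KMT2C with 1 of 139. The peaks of this second group lay near the shares over all peaks. Of its 116 WT plus UV peaks 33 were gained (28.4%, 21.0 to 37.2), and of its 106 WT minus UV peaks 22 were lost (20.8%, 14.1 to 29.4). ASH1L went from 4 peaks to 8, the opposite of KMT2A. Among 19 collagen and matrix genes 3 were gained, COL4A1 with 5 peaks, COL5A2 with 4 and COL3A1 with 2, and 0 lost; LAMA5 went from 5 to 2.

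The markers of the cell line gave little to check it by, since a peak does not measure a transcript's level. Of 10 osteoblast lineage markers 4 carried a peak, among them RUNX2, COL1A1 and SPP1. RUNX2, the master regulator of the lineage, had 3 peaks over 559 bases without UV and none with it, COL1A1 had 2 and 1, and SPP1 had 1 peak in each list at sites that did not overlap. Of the blood cell markers 0 of 9 carried a peak, of the epithelial markers 2 of 8 (EPCAM, gained with 2 peaks, and CLDN4) and of the neuronal markers 2 of 8 (NEFL, and RBFOX3, lost with 1 peak).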

How the data were processed

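The members and the gene lists were chosen with earlier results of these data known. The submitters' processing notes name TopHat2 2.0.14 and genome build hg38. The sources used here do not state how peaks were called, at which threshold, or how inputs and replicates were combined. The values the authors deposited are peak starts and ends in bases along RefSeq transcripts, taken here as counted from 1 with both ends included, and have no unit of signal (other). Neither list held a repeated or overlapping peak. Of 8901 transcripts 8800 (98.9%) were matched to a gene through a RefSeq table (GRCh38.p14), 105 of 106 copy-numbered ones after removal of the copy number; the 101 unmatched were left out of gene counts. Mitochondrially encoded genes matched 0 symbols. Overlaps and shares were computed with pandas 2.3.3 and SciPy 1.17.1. The overlap step was checked on copies of the WT minus UV list with a known share of peaks removed at random and the rest slightly shifted (tested on simulated data). That check covered lost peaks under the 1-base rule, not gained peaks or the other overlap rules. Genes were named by rule: the 10 longest by total peak length gained and lost, the 5 with most gained, most lost and most kept peaks, the 3 widest gained and lost peaks, members of the gene lists, and the 3 longest each way of a family; LOC and LINC symbols were skipped. Other members of the lists were named after their values were seen. Alternatives changed the overlap, width, copies, transcripts and peaks required. Some genes that the rule names are not reported here.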

Additional observations from a re-analysis of the deposited data

How the results depend on the processing

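No paired analysis was possible because each condition has 1 list for all of its replicates, and no library could be left out for the same reason. More gained than lost peaks and genes were found under every alternative run. Gained and lost peaks stayed within 1.5 times the reported counts when 50% of the narrower or of both peaks had to overlap, when a gap of up to 100 bases still counted, when peaks within 100 bases were merged, with a minimum width of 150 bases and without copy-numbered transcripts; gained peaks numbered 3995 to 5487 and lost peaks 2445 to 4011. On shared transcripts alone, 2270 peaks were gained and 1910 lost, with median widths of 160 and 156 bases. In bases instead of peaks, 34.7% of the WT plus UV and 26.5% of the WT minus UV list lay outside the other. With at least 2 peaks required, 490 genes were gained and 230 lost. At the minimum width of 150 bases 1713 genes were gained and 826 lost, of which 1251 and 576 were those reported, so that single genes depend on it more than counts do; group counts of gained members then went from 2 to 1 for m6A writers and long noncoding RNAs, 1 to 2 for translesion synthesis, 5 to 3 for end joining, base excision and PARP, 0 to 1 for mitotic regulators and 1 to 3 for RNA polymerase II and splicing. Lost members went from 2 to 1 for m6A writers, the ATR and ATM checkpoint, histone methyltransferases and demethylases and remodellers, 2 to 0 for TFIIH, 0 to 2 for end joining and for replication and 0 to 1 for RNA polymerase II and splicing; the other 24 group counts stayed within 1.5 times. Transcript lengths from a reference were not used here, and that alternative was not run.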

Other observations

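Large families outside the groups above are given here beside the shares over all genes, 18.9% gained and 9.36% lost. Of 171 solute carriers 26 were gained (15.2%, 10.6 to 21.3) and 17 lost (9.94%, 6.30 to 15.3). SLC31A1, the high-affinity copper importer, had 3 gained peaks over 574 bases with the first at 1 to 159, SLC2A8 had 3 over 572 and the glutamate transporter SLC1A3 had 3 over 535, while SLC2A12 and SLC9A2 lost 3 each beside the 8 of SLC5A3. Of 67 BTB and kelch genes 12 were gained and 7 lost, with ZBTB24, BTBD1 and ZBTB48 the longest gained and ZBTB20, BTBD9 and ZBTB11 the longest lost. Of 40 ubiquitin-specific proteases 0 were lost (an interval of up to 8.76%) and 4 gained, USP8, USP20 and USP48 with 3 peaks each among them. Of their 109 WT plus UV peaks 34 were gained (31.2%, 23.3 to 40.4), and of their 92 WT minus UV peaks 15 were lost (16.3%, 10.1 to 25.2); over all peaks these shares were 30.0% and 22.4%. Of 28 kinesins 2 were gained, KIF18A with 3 peaks and KIF21A with 1, and 3 lost, KIF14, KIF15 and KIF22. Of 15 cytosolic ribosomal protein genes 14 kept their peak and RPS15 was gained with 1 of 100 bases. Of 13 core histone genes 3 were gained and 1 lost, all members of the H4 family of related genes. How well reads of such genes can be told apart was not tested.

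Gained shares by chromosome ran from 15.3% (12.3 to 18.8) of 478 genes on chromosome 12 to 24.9% (20.1 to 30.4) of 269 on the X chromosome. Lost shares ran from 6.26% (4.42 to 8.80) of 479 on chromosome 11 to 12.7% (9.79 to 16.4) of 393 on chromosome 6. These are the lowest and highest values over the chromosomes compared, singled out after the values were seen.

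Both lists held peaks that touch with no base between them, 642 such boundaries without UV and 716 with it. The boundary fell on the same base in both lists in 47 cases, 7.32% of the first and 6.56% of the second.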
